A study of Mus musculus with 14 samples.

Results

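The transcripts of 9 complement genes were followed in the aortic intima, the inner coat of the artery with its endothelium, in atherosclerosis-prone mice that lack apolipoprotein E. The genes were C1qa, C1qb and C1qc (the chains of C1q), C1ra, C4b, C3, Cfb, Serping1 and Cd55, taken by gene symbol from a count table of 22430 genes, in which all 9 were found. All 14 libraries came from Apoe-/- mice and each held the lysates of 12 to 14 animals of 1 genotype. The wild-type control (Lmna+/+, 4 pools) served the ubiquitous progerin group (LmnaG609G/G609G, 3 pools), in which both Lmna copies give rise to progerin, a shortened lamin A known from Hutchinson-Gilford progeria syndrome. The lamin C-only control (LmnaLCS/LCS, 4 pools) served the VSMC progerin group (LmnaLCS/LCS SM22Cre, 3 pools), in which a Cre recombinase driven by the SM22 promoter turns on progerin in vascular smooth muscle cells (VSMC). Both groups of this second comparison carry the LCS allele, so their other cells make lamin C without lamin A. The sources used here do not state the animals' age or sex.

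Complement is a cascade of plasma and tissue proteins that marks surfaces for removal and draws in leukocytes. C1q binds antibodies, C-reactive protein, dying cells and modified lipoproteins and, through the proteases C1r and C1s, cleaves C4 and C2 into an enzyme that cleaves C3. Factor B builds a second such enzyme in the alternative pathway, C1 inhibitor (Serping1) blocks C1r and C1s, and Cd55 (decay-accelerating factor) takes the C3-cleaving enzymes apart on the cell's own membrane. Macrophages are the main tissue source of C1q, while liver, fibroblasts, adipocytes and endothelium also make several of the other components.

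The C1q chains lie side by side on the minus strand of chromosome 4 (GRCm38, GENCODE M21 gene bounds): C1qb at chr4:136880129-136886187, C1qc at chr4:136889804-136893065 and C1qa at chr4:136895917-136898803, a span of 18675 bases. C4b (chr17:34728380-34743882), Cfb (chr17:34856374-34862518) and C3 (chr17:57203970-57228136) are on the minus strand of chromosome 17, and C1ra (chr6:124512405-124523443) is on the plus strand of chromosome 6. Serping1 lies at chr2:84765387-84775444 and Cd55 at chr1:130439027-130462744. RefSeq promoter windows (GRCm38.p6, 250 bases before to 50 after a start site) were at hand for 5 of the 9 genes, namely C1qb, C1qc, C1ra, C3 and Cd55. The 250 upstream bases of 3 of them are printed because C1qb and C1qc moved together and C3 moved separately from them. Capitals mark matches to the motifs searched on both strands: GAGGAA (PU.1), TTCNNNGAA (a GAS element), TTGCNNAA (C/EBP), and the ISRE and NF-kappaB consensus motifs.
C1qb, chr4:136886201-136886450, minus strand: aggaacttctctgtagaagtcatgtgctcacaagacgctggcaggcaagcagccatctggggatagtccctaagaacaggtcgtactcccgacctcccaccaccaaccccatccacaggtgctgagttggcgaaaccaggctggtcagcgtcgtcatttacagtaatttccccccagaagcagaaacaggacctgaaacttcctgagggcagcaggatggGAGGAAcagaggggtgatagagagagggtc
C1qc, chr4:136892915-136893164, minus strand: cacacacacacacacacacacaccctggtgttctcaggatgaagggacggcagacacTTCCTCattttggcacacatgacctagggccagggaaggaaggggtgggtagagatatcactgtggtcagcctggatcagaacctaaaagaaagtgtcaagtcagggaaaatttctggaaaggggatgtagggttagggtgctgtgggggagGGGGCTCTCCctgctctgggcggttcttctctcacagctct
C3, chr17:57228137-57228386, minus strand: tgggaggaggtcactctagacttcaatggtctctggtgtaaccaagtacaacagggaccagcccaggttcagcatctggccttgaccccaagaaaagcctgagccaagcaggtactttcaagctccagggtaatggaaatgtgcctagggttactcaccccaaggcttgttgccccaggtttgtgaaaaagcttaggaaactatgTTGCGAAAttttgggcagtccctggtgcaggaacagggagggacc

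The C1qb window held the PU.1 letters at -30 from the start site. The C1qc window held them on the opposite strand at -193, and an NF-kappaB match at -41. The C3 window held the C/EBP letters at -45. The C1ra window held both the C/EBP and the PU.1 letters on the opposite strand, at 17 and 45 bases past the start site. Of all 32851 mouse windows of this length, 28.3% held the PU.1 letters, 10.8% the C/EBP letters and 8.46% an NF-kappaB match. GAS letters (8.3% of windows) were found only in C1ra and the ISRE motif (3.44%) in none of the 5 windows, and none of the 5 motifs was found in the Cd55 window. Distances are from the RefSeq start sites, which for C1qc and C1ra lie inside the GENCODE gene bounds given above. Part of the 250 bases before these 2 sites, with the C1qc NF-kappaB match, is therefore within those bounds. These are descriptions of letters, not of binding.

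Libraries held 27169784 to 35692385 estimated counts. Of the 22430 genes, 14269 had enough counts to be tested, all 9 complement genes among them. Levels are given as CPM, the count per 1000000 of a library total adjusted by TMM (trimmed mean of M-values), and changes as log2 fold changes with standard errors (SE) from edgeR's quasi-likelihood test, called at an adjusted p (Benjamini-Hochberg over all genes tested) under 0.05. Summed endothelial markers stood at 19920 to 23196 CPM in all 14 libraries, against at most 966 CPM for smooth muscle markers. The liver markers Alb, Apoa1, Ttr and Serpina1a together reached at most 0.408 CPM and the lymphocyte markers at most 5.47 CPM. Lmna transcript, which does not distinguish the progerin allele in these gene counts, differed by -0.02 ± 0.07 (SE) in ubiquitous progerin and by 0.78 ± 0.07 in VSMC progerin on the log2 scale. Each pool is a separate set of mice, so p-values measure the spread between pools.

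In both progerin models most of the complement genes rose, by amounts that differed from gene to gene. In ubiquitous progerin 7 of the 9 were higher and 2 lower, beside 26.3% of all genes tested called higher and 28.3% called lower. The ranges of the libraries did not overlap for 6 of the higher and both lower genes, where 28.2% and 28.3% of all genes had ranges apart in those directions. In VSMC progerin 7 were higher and 1 lower, beside backgrounds of 19% and 23%, with ranges apart for the same number in each direction, beside 20.7% and 24.8%. The median log2 change of the 9 genes was 1.85 in ubiquitous progerin and 2.52 in VSMC progerin, against -0.005 and -0.03 over all genes tested. In bulk RNA, more cells of a type and more RNA per cell cannot be told apart.

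**Figure D1:**
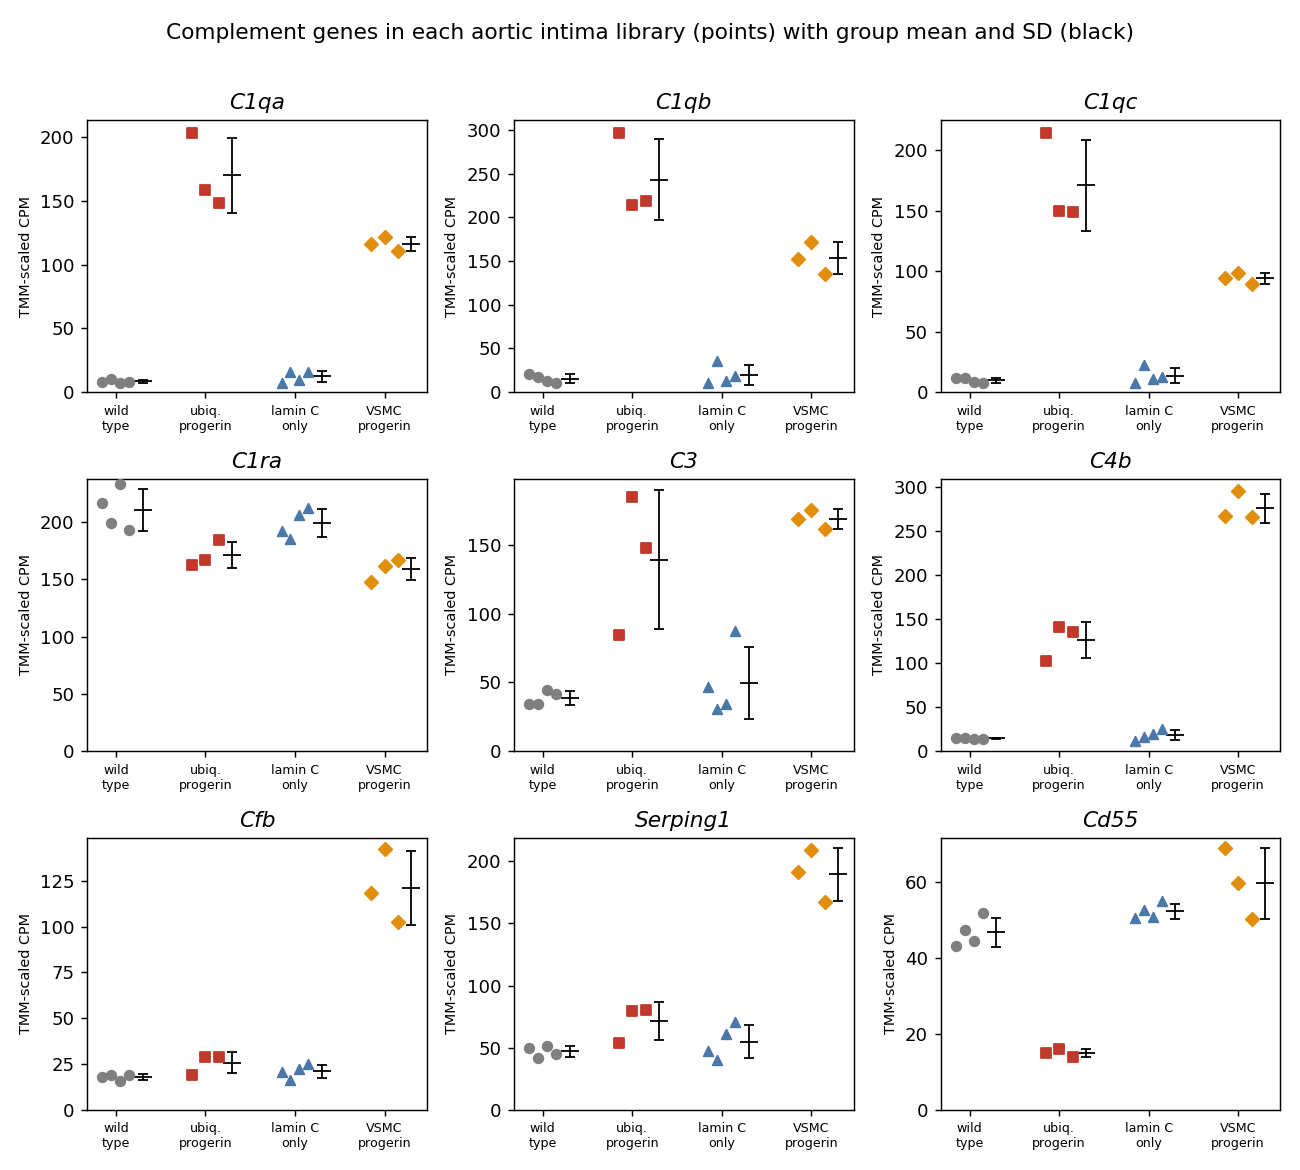
Level of each of the 9 complement genes (vertical axes, TMM-scaled CPM, each from 0) in every library, by group (horizontal axes); coloured points are pools and the black bar beside them is the group mean with its SD. The C1q chains are highest in ubiquitous progerin, C4b, Cfb and Serping1 in VSMC progerin, and Cd55 is low in ubiquitous progerin alone.

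C1qa was at 7.58, 7.94, 8.33 and 10.2 CPM in the wild-type control pools, listed in rising order, and at 204, 159 and 149 CPM in the ubiquitous progerin pools. The lamin C-only pools, also listed in rising order, gave 7.32, 9.79, 16.1 and 16.1 CPM. The VSMC progerin pools gave 116, 122 and 111 CPM. Every progerin pool was therefore far above every control pool, and each ubiquitous pool was above each VSMC pool. The rise was 20.0-fold in ubiquitous progerin (log2 4.32 ± 0.25, adjusted p = 6.6e-08) and 9.48-fold in VSMC progerin (3.25 ± 0.24, adjusted p = 9.4e-07).

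C1qb, the chain with the highest level per kilobase of exon in either progerin group, was at 10.5 to 21.2 CPM in wild-type pools and at 297, 214 and 219 CPM in ubiquitous progerin pools. It was at 10.8, 35.5, 13.01 and 18.1 CPM in lamin C-only pools 1 to 4 and at 153, 172 and 135 CPM in VSMC progerin. C1qc was at 7.62 to 12.1 CPM in wild-type pools and at 214, 150 and 149 CPM in ubiquitous progerin pools, and at 7.82 to 22.4 CPM in lamin C-only pools and 94.3, 98.7 and 89.7 CPM in VSMC progerin. Pool 1 of ubiquitous progerin was the highest for all 3 chains, and lamin C-only pool 2 was the highest control pool for each of them (for C1qa together with pool 4). The log2 changes were 3.98 ± 0.39 for C1qb (adjusted p = 8.0e-06) and 4.11 ± 0.32 for C1qc (adjusted p = 9.7e-07) in ubiquitous progerin. In VSMC progerin they were 2.99 ± 0.38 (adjusted p = 9.7e-05) and 2.81 ± 0.30 (adjusted p = 2.6e-05).

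Macrophage markers rose with the C1q chains. All 10 macrophage genes (among them Cd68, Csf1r, Mrc1 and Lyz2) were higher in both models. Of all genes tested, 26.3% were called higher in ubiquitous progerin and 19% in VSMC progerin. The summed level of the macrophage genes was 87.3 to 158 CPM (wild-type control) and 845 to 1424 CPM (ubiquitous progerin). It was 81.5 to 259 CPM in lamin C-only pools and 652 to 765 CPM in VSMC progerin pools. The log2 ratio of summed C1q to summed macrophage CPM was -0.89 ± 0.17 (SD, n = 3) in ubiquitous progerin and -1.88 ± 0.13 (n = 4) in the wild-type control, a difference of 0.99 with no overlap (exact two-sided permutation test, p = 0.0286, the smallest that 35 arrangements allow). In VSMC progerin the ratio was -0.98 ± 0.04 against -1.82 ± 0.31, a difference of 0.84 (exact two-sided permutation test, p = 0.0286). Lyz2 weighed most in the macrophage sum of the controls, with a mean of 69.9 of 125 CPM in wild-type and 93.8 of 160 CPM in lamin C-only pools. The 10 markers had median log2 changes of 3.29 (ubiquitous) and 2.50 (VSMC progerin). Mrc1 (4.85 ± 0.25 and 3.70 ± 0.24) rose more than any C1q chain. Both ratio differences were smaller with Lyz2 and Cd68 left out of the list, at 0.621 in ubiquitous progerin (exact p = 0.0286) and 0.557 in VSMC progerin (exact p = 0.0857). With a mean of log2 values over genes they were 0.872 (exact p = 0.0286) and 0.496 (exact p = 0.114). Whether macrophage number accounts for the rise was not tested.

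**Figure D2:**
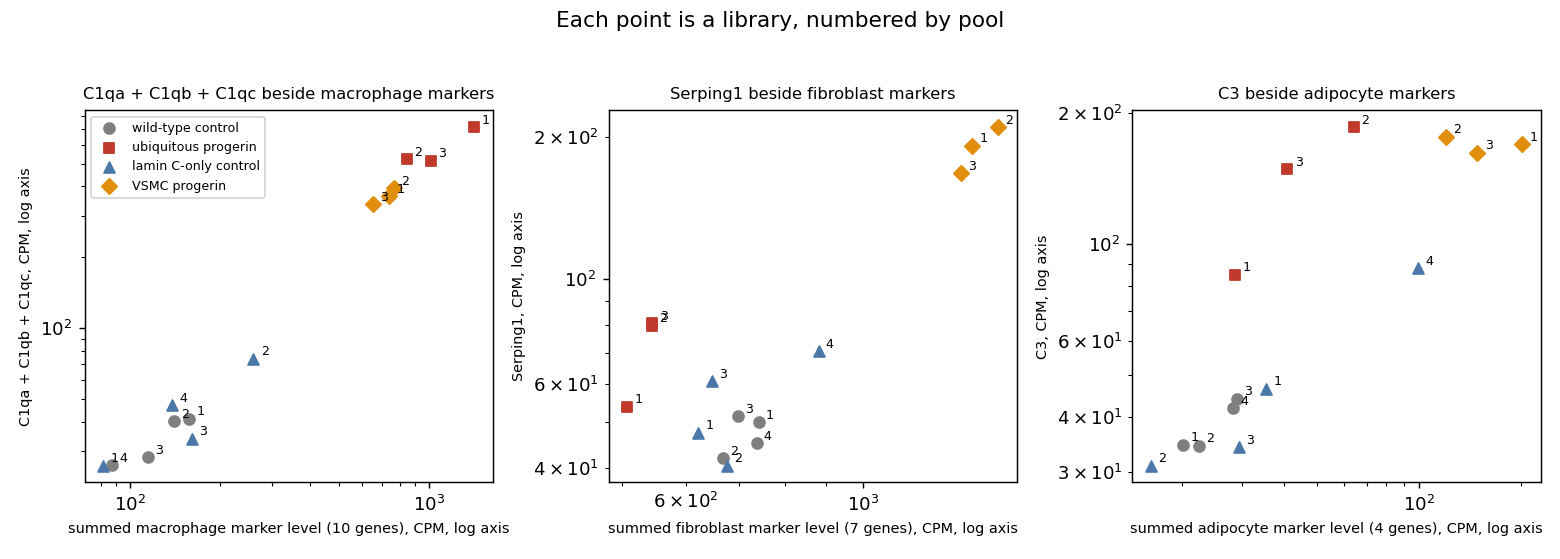
Each point is a library, numbered by pool; all axes are log scales in CPM, with the summed C1q chains beside the summed macrophage markers (left), Serping1 beside the summed fibroblast markers (middle) and C3 beside the summed adipocyte markers (right). In the left panel the progerin libraries lie at 652 to 1424 CPM of macrophage markers and the controls at 81.5 to 259.

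C1ra, the C1r protease that C1q activates, moved the other way and by little. The wild-type control pools had 217, 199, 233 and 193 CPM and the ubiquitous progerin pools 163, 167 and 184 CPM. The lamin C-only pools had 192, 185, 206 and 212 CPM and the VSMC progerin pools 148, 162 and 167 CPM. Neither progerin group overlapped its own control. The log2 change was -0.30 ± 0.07 in ubiquitous progerin (adjusted p = 0.0016) and -0.33 ± 0.07 in VSMC progerin (adjusted p = 0.0012). Its near-copy C1rb had at most 0.684 CPM, and in the control groups C1ra was, per kilobase of exon, the most abundant of the 9 genes.

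C4b, the substrate of C1s, was at 14.4, 15.2, 13.4 and 13.7 CPM in the wild-type control and at 103, 140 and 135 CPM in ubiquitous progerin. The lamin C-only pools gave 11.4, 15.6, 19.8 and 25.1 CPM and the VSMC progerin pools 266, 295 and 265 CPM. The groups were far apart in both comparisons, and here the VSMC model was the higher one. C4b rose 8.87-fold in ubiquitous progerin (3.15 ± 0.21, adjusted p = 2.1e-07) and 15.3-fold in VSMC progerin (3.94 ± 0.21, adjusted p = 6.3e-08). C4a, which is nearly identical to C4b, was not found in the count table, and reads shared with it could be assigned to C4b. The alternative that summed near-identical copies therefore left the C4b counts as they were.

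C3, the protein on which all 3 activation routes converge, was at 34.6, 34.4, 44.1 and 41.9 CPM in the wild-type control and at 84.9, 185 and 148 CPM in ubiquitous progerin pools 1, 2 and 3. It was at 46.5, 31.0, 34.1 and 87.9 CPM in lamin C-only pools 1 to 4 and at 169, 176 and 162 CPM in VSMC progerin. The ubiquitous pools were spread over a range that included values close to the highest lamin C-only pool, but each comparison's own groups were apart. The log2 changes were 1.85 ± 0.36 (adjusted p = 0.0012) and 1.76 ± 0.35 (adjusted p = 0.0023). Summed adipocyte markers ran in the same order as C3 within the ubiquitous pools, at 28.8, 64.1 and 41.0 CPM, and lamin C-only pool 4 had the most of both, 99.3 CPM of adipocyte markers. None of the 4 adipocyte markers was called in ubiquitous progerin, beside 26.3% of all genes tested called higher and 28.3% lower. In VSMC progerin 3 of 4 were higher, beside 19% of all genes. The summed level of the adipocyte markers was 20.2 to 29.1 CPM in wild-type pools and 16.2 to 99.3 CPM in lamin C-only pools. In VSMC progerin pools 1, 2 and 3 these markers were at 201, 120 and 149 CPM, which was not the order of C3. Their part in the C3 result was not tested.

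Cfb (factor B) separated the models most among the genes that rose. Its level was 18.1, 19.1, 15.7 and 19.1 CPM in wild-type pools and 19.1, 29.1 and 29.0 CPM with ubiquitous progerin, so the first ubiquitous pool lay within the control range. The lamin C-only pools gave 20.8, 16.5, 22.4 and 24.9 CPM and the VSMC progerin pools 119, 142 and 103 CPM. The log2 change was 0.51 ± 0.17 in ubiquitous progerin (adjusted p = 0.019) and 2.52 ± 0.16 in VSMC progerin (adjusted p = 3.5e-08), a 5.72-fold rise. The ubiquitous call ended without ubiquitous pool 2 (0.42, adjusted p = 0.091), ubiquitous pool 3 (0.42, adjusted p = 0.086) or wild-type pool 3 (0.45, adjusted p = 0.052), all by the same edgeR test.

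Serping1, the inhibitor of C1r and C1s, was at 49.9, 41.9, 51.4 and 45.1 CPM in the wild-type control pools and at 53.8, 79.7 and 80.7 CPM with ubiquitous progerin. The lamin C-only pools gave 47.4, 40.4, 60.9 and 70.4 CPM and the VSMC progerin pools 192, 209 and 167 CPM, all 3 above every other library. The log2 change was 0.60 ± 0.19 in ubiquitous progerin (adjusted p = 0.021) and 1.79 ± 0.19 in VSMC progerin (adjusted p = 1.6e-05). The ubiquitous call ended without ubiquitous pool 2 (0.51, adjusted p = 0.080), ubiquitous pool 3 (0.51, adjusted p = 0.084) or wild-type pool 2 (0.55, adjusted p = 0.053). Summed fibroblast markers were at 669 to 741 CPM in wild-type pools and 507 to 545 CPM in ubiquitous progerin pools. Of the 7, Serpinf1 was called higher there, Pi16 and Mfap5 lower and 4 were not called, with a median log2 change of 0.38. The shares of all genes tested were 26.3% higher and 28.3% lower. The summed fibroblast markers were at 623 to 880 CPM in lamin C-only pools and 1328 to 1476 CPM in VSMC progerin pools. There 5 of 7 were called higher, beside 19% of all genes tested. Pi16 made up much of the rise in the sum, with group means of 230 CPM (lamin C-only) and 698 CPM (VSMC progerin). The means of Pdgfra (6.30 and 6.19 CPM) and Dcn (164 and 133 CPM) did not rise. Their part in the Cfb and Serping1 results was not tested.

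Cd55 fell in ubiquitous progerin alone. It was at 43.3, 47.4, 44.5 and 51.8 CPM in the wild-type control and at 15.1, 16.1 and 14.0 CPM in ubiquitous progerin, while the lamin C-only pools gave 50.6, 52.7, 50.9 and 55.0 CPM and the VSMC progerin pools 68.9, 59.9 and 50.3 CPM. The ubiquitous pools lay far below every other library. Cd55 fell by 1.64 on the log2 scale (SE 0.10, adjusted p = 5.4e-11), a 3.11-fold lower level. In VSMC progerin the log2 change was 0.19 ± 0.09 (adjusted p = 0.095, with a 95% interval from 0.004 to 0.38) and the groups overlapped. Its near-copy Cd55b reached at most 0.373 CPM.

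**Figure D3:**
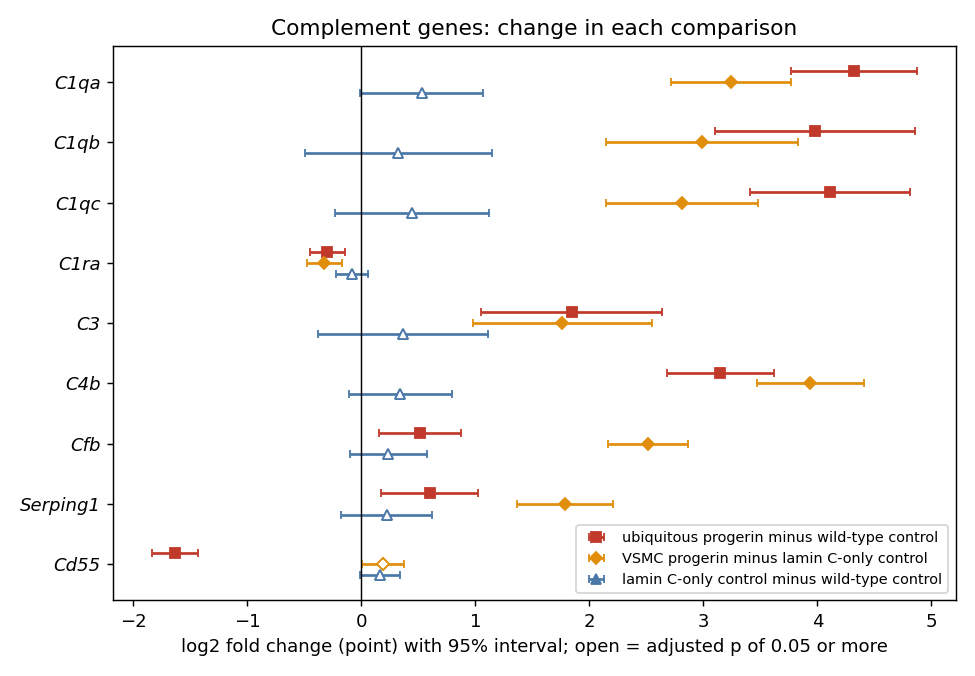
Log2 fold change (horizontal axis) of each complement gene with its 95% interval, for the ubiquitous progerin, VSMC progerin and lamin C-only comparisons; open symbols have an adjusted p of 0.05 or more. All 9 lamin C-only symbols are open, and Cd55 and Cfb show the widest gaps between both progerin models.

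Whether the models differed was tested directly as the ubiquitous effect minus the VSMC effect, which share no library. C1qa (1.08 ± 0.34, adjusted p = 0.023) and C1qc (1.30 ± 0.43, adjusted p = 0.030) rose more in ubiquitous progerin, beside 22.4% of all genes called in that direction. The other direction held C4b (-0.79 ± 0.29, adjusted p = 0.048), Cfb (-2.003 ± 0.23, adjusted p = 1.1e-05), Serping1 (-1.19 ± 0.27, adjusted p = 0.0042) and Cd55 (-1.83 ± 0.13, adjusted p = 1.4e-09), beside 21.8%. C1qb (0.99 ± 0.53, 95% interval -0.19 to 2.17), C1ra (0.03 ± 0.10, -0.19 to 0.24) and C3 (0.08 ± 0.50, -1.03 to 1.199) were not called. The calls for Cfb, Serping1 and Cd55 held without any 1 pool. The C4b call ended in 12 of the 14 fits that left out 1 pool (adjusted p up to 0.10). The C1qc call ended in 5 of 14 such fits (up to 0.077), and the C1qa call without ubiquitous pool 1 (0.061).

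The lamin C-only control, which shares libraries with both progerin comparisons, gave no call against the wild-type control for any of the 9 genes. The log2 changes ran from -0.08 to 0.53 with adjusted p of 0.68 to 0.92 by edgeR, none had an unadjusted p under 0.05, and all 9 ranges overlapped, where 0.175% of all genes were called and 4.99% had ranges apart. C1qa had the largest difference, 0.53 with a 95% interval of -0.009 to 1.07.

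The other complement genes, 47 listed by role, were described beside these 9. Of them 46 were in the count table, 29 passed the filter on low counts, 17 did not, and 6 had no count in any library. In ubiquitous progerin 13 of the 29 were higher and 5 lower, beside 26.3% and 28.3% of all genes tested. In VSMC progerin 15 were higher and 4 lower, beside 19% and 23%, and none was called between the controls, beside 0.175%. Of the 9 receptors tested, 6 were higher and 1 lower (Cd93, named after its values were seen) in ubiquitous progerin, beside the same 26.3% and 28.3%, and 7 were higher and none lower in VSMC progerin, beside 19% and 23%. Itgam, a chain of the receptor for cleaved C3, changed by 4.90 ± 0.21 and 3.67 ± 0.20 on the log2 scale in these models, and the anaphylatoxin receptor C3ar1 by 3.85 ± 0.26 and 2.95 ± 0.25. Both are genes that macrophages express, and the macrophage markers stood higher in the same libraries. Whether macrophage number accounts for the change of Itgam and C3ar1 was not tested. In the classical list, C2, which forms the C3-cleaving enzyme with C4, changed by 1.85 ± 0.49 and 1.82 ± 0.47, at no more than 4.94 CPM. The lectin Fcna changed by 2.52 ± 0.50 and 1.83 ± 0.49, the second of which lost its call without VSMC progerin pool 2 (1.27, adjusted p = 0.062), and properdin (Cfp), which stabilises the alternative enzyme, by 1.64 ± 0.16 and 1.38 ± 0.16. C6, a component of the membrane attack complex, was counted 0 or 1 times in the wild-type control pools, 0 to 8 in the lamin C-only, 4 to 22 in ubiquitous progerin and 65 to 90 in VSMC progerin.

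Among soluble regulators, Clu (clusterin, an inhibitor of the terminal complex) changed by -0.26 ± 0.06 and 0.49 ± 0.06 (adjusted p = 6.9e-04 and 1.1e-06), with a difference of -0.75 ± 0.08 (adjusted p = 3.4e-07). Among membrane regulators, Cd46 was lower in both models, by -0.68 ± 0.08 and -0.31 ± 0.07, and Cr1l by -0.13 ± 0.05 and -0.30 ± 0.05 (adjusted p = 0.036 and 9.0e-05). The first Cr1l call ended with DESeq2 size factors (adjusted p = 0.079) and with no filter on low counts (0.057), both by edgeR. It held in only 2 of the 7 edgeR fits that left out 1 pool (adjusted p up to 0.11).

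**Figure D4:**
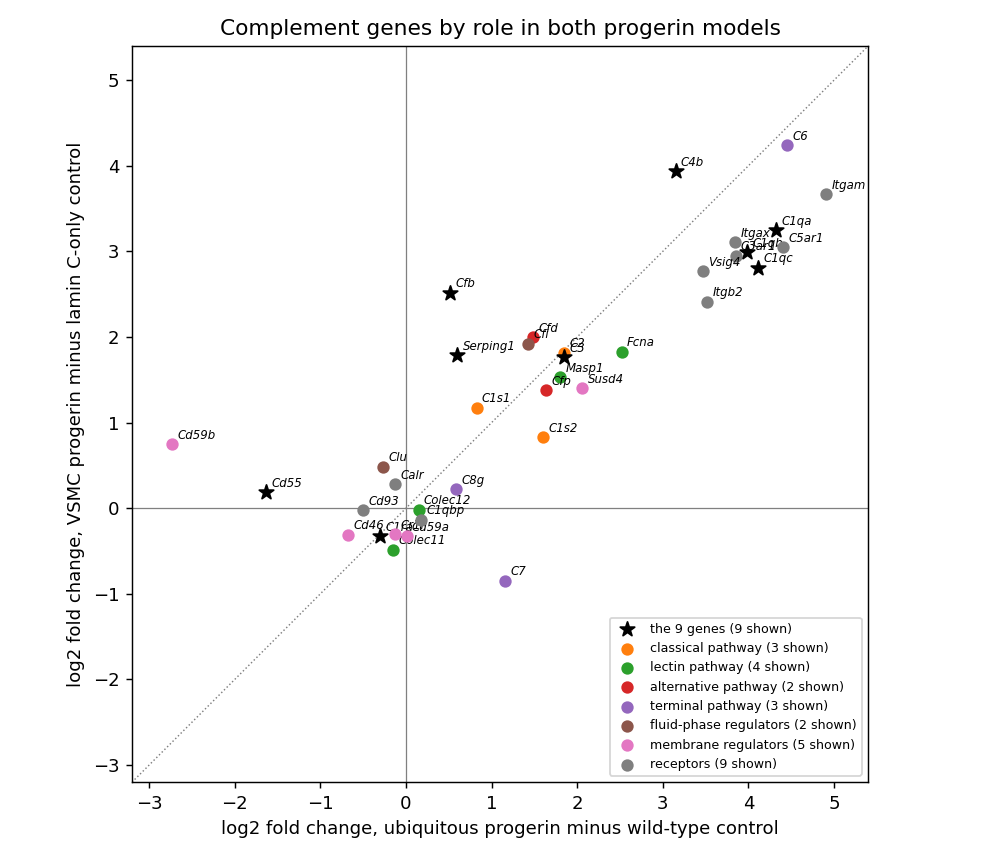
Log2 fold change of complement genes in ubiquitous progerin (horizontal) and VSMC progerin (vertical), with colours by role, stars for the 9 genes and a dotted line where both are equal. C6 and Cd59b rest on few counts. The receptors Itgam, Itgax, Itgb2, C3ar1, C5ar1 and Vsig4 sit at the upper right with the C1q chains. Of the other 3 receptors, Cd93 lies at -0.50 (horizontal) and -0.02 (vertical) and the rest near 0. Cfb and Serping1 lie above the line and Cd55 at the left.

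The genes whose pattern over the 14 libraries was most like each complement gene were found by Pearson r of log2 CPM among 10722 genes whose log2 CPM averaged 2 or more. For C1qa they were Fcgr3 (r = 0.996), Rab7b and Csf1r, for C1qb C1qc (0.997), Tyrobp and Plek, and for C1qc Mpeg1 (0.997), C1qb and Laptm5. C3 was closest to Gpx3 (0.985), Adig and Lpl, and C4b to Tent5a (0.987), Ccl9 and Mmp14. Cfb and Serping1 were closest to each other (0.978). Cd55 was closest to Tspan9 (0.989), Gja5 and Adam10, and C1ra to Art4 (0.939), Bmp4 and 2210016L21Rik. The libraries fall into groups by genotype, so these values describe shared group patterns and carry no p.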

How the data were processed

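RNA was measured in 14 libraries of polyadenylated RNA from aortic intima (strand-specific kit, per the labels' protocols). The deposited values are RSEM 1.2.28 estimated counts for each gene, made by the authors with STAR 2.7.10b, Trim Galore 0.6.10 and cutadapt 4.1, on GRCm38, per the submitters' processing notes. The sources used here do not state the annotation release or strand setting. They also deposited log2 normalised values for 13034 genes, which served as an alternative only. Estimated counts were rounded and filtered with filterByExpr (count of at least 10, total of at least 15, 0.7 of the smallest group). They were tested with edgeR 4.0.16 in R 4.3.3 (TMM scaling, robust quasi-likelihood, group means fitted to all 14 libraries at once). SE is the size of the log2 change over the root of its F value, and 95% intervals come from the same fit. Levels per kilobase use exon-union lengths of GENCODE M21. Alternatives were DESeq2 1.42.0, limma voom 3.58.1, limma on the deposited values, DESeq2 size factors, no filter, only the groups compared, near-identical copies summed, a replicate block and each pool left out in turn. The steps were tested on simulated data. The complement genes, the wider lists and the cell type markers were chosen with earlier results of these data known. Named genes were the 9 members, up to 2 called genes with the smallest p per role list in each progerin comparison, near-identical copies, and 3 genes of most similar pattern per member. Cd93 and C5ar1 were added after their values were seen. A gene of the wider lists, included in their counts, is not reported here.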

Additional observations from a re-analysis of the deposited data

Results flagged for a closer look

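The effects of both progerin models differed by the direct test for 6 complement genes. The log2 change in ubiquitous progerin minus that in VSMC progerin was 1.08 for C1qa, 1.30 for C1qc, -0.79 for C4b, -2.003 for Cfb, -1.19 for Serping1 and -1.83 for Cd55. Of all genes tested, 22.4% were called in the positive direction and 21.8% in the negative. With 1 pool left out, the C4b call held in 2 of 14 fits, that of C1qc in 9 and that of C1qa in 13. No sample of the 20 groups tested stood outside its group by the gap test, which was run only on control groups of 4 pools. The progerin groups, with 3 pools each, were too small for it and were not tested.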

How the results depend on the processing

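The counts of complement genes called were 9 in ubiquitous progerin and 8 in VSMC progerin, or 9 with the replicate block, under all settings with every library. With 1 pool left out they were 7 to 9 and 8 to 9, and 0 between the controls throughout. For the difference of effects 6 were called, 5 with no filter on low counts, and 3 to 6 with 1 pool left out (3 without ubiquitous progerin pool 1). Genes called between the controls over all genes numbered 25, but 103 with DESeq2, 1 with limma on the deposited values, 40 with no filter, 16 with only the groups compared and 8 to 45 with 1 pool left out. The difference of effects for C3, near 0, was -0.12 with limma voom, -0.11 with the deposited values, -0.028 with the replicate block and -0.34 to 0.33 with 1 pool left out. With 1 pool left out, that of C1ra ran from -0.048 to 0.079, and the control difference from -0.14 to 0.52 for C1qb and from -0.059 to 0.53 for C3. Values near 0 for Cd93 and Cd59a also changed sign. That of Cd93 in VSMC progerin was 0.012 with DESeq2 size factors, 0.012 with DESeq2 and 0.013 with only the groups compared, and ran from -0.060 to 0.013 with 1 pool left out. That of Cd59a in ubiquitous progerin ran from -0.058 to 0.074 with 1 pool left out. The C4b difference lost its call with no filter (-0.78, adjusted p = 0.070). Cd55 in VSMC progerin was called with the replicate block (0.22, adjusted p = 0.042) and without VSMC pool 3 (0.30, adjusted p = 0.0098). The C1q to macrophage ratio in VSMC progerin was 0.557 with Lyz2 and Cd68 left out and 0.496 with the mean of log2 values, and that in ubiquitous progerin was 0.621 and 0.872. With 1 pool left out the ratio differences were 0.892 to 1.04 in ubiquitous progerin and 0.693 to 0.926 in VSMC progerin (exact permutation p from 0.067 to 0.1, the smallest those sizes allow). For the wider complement genes, whose alternatives were chosen after seeing the data, 15 to 20 were called in ubiquitous progerin and 18 to 20 in VSMC progerin. Calls for C1s1 and Cr1l in ubiquitous progerin, and for Cfd and Fcna in VSMC progerin, ended in some of these fits. Cfd became called in ubiquitous progerin in 6 of them. Deviations from the group mean correlated at -0.05 to 0.02 between same-numbered pools and at -0.06 to 0.07 between differently numbered ones. With so few pools per group, this check cannot exclude that pool numbers pair the libraries. The causes were not tested.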

Other observations

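Cd93, an endothelial receptor once described as a C1q receptor, was chosen after its values were seen. It changed by -0.50 ± 0.06 in ubiquitous progerin (adjusted p = 1.2e-06 by edgeR) and by -0.02 ± 0.06 in VSMC progerin (adjusted p = 0.83), and the difference of these effects was -0.48 ± 0.09 (adjusted p = 1.6e-04). C5ar1, the receptor for the anaphylatoxin C5a, also chosen after its values were seen, changed by 4.40 ± 0.44 and 3.05 ± 0.40, with a difference that was not called (1.35 ± 0.60, adjusted p = 0.072). Cd59a, which blocks the membrane attack complex, changed by -0.33 ± 0.08 in VSMC progerin (adjusted p = 0.0019) and by 0.008 ± 0.08 in ubiquitous progerin (adjusted p = 0.94), with a difference of 0.33 ± 0.11 (adjusted p = 0.016). Cfd, which cleaves factor B, was at 322, 368 and 447 CPM in VSMC progerin pools and at 67.9, 33.0, 49.5 and 230.0 CPM in lamin C-only pools, a log2 change of 2.00 ± 0.58 (adjusted p = 0.019). This call ended with only the groups compared (adjusted p = 0.090), without lamin C-only pool 1 (0.053) and without VSMC pool 3 (0.0505). In ubiquitous progerin pools Cfd was at 82.0, 196 and 127 CPM and in wild-type pools at 35.7 to 57.7 CPM, a log2 change of 1.49 ± 0.59 that was not called (adjusted p = 0.054) although the ranges were apart. Summed adipocyte markers ran in the same order as Cfd in the lamin C-only pools, at 35.4, 16.2, 29.5 and 99.3 CPM in pools 1 to 4. They also did so in ubiquitous progerin pools 1, 2 and 3, at 28.8, 64.1 and 41.0 CPM. In VSMC progerin pools 1, 2 and 3 these markers were at 201, 120 and 149 CPM, which was not the order of Cfd. Their part in the Cfd result was not tested.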
